A study of Mus musculus with 15 samples.

Results

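Transcripts of 5 genes that encode the core of the subcortical maternal complex (Nlrp5, Tle6, Ooep, Khdc3 and Zbed3) were followed across 4 genotype groups of mouse oocytes. The genes were taken by name from the 53700 genes counted, and no measured value entered the rule, although the set was chosen with earlier results of these data known. RNA came from fully grown oocytes still arrested in meiosis, at the stage named for the germinal vesicle (GV), with 15 oocytes in each library. Padi6 KO (3 biological replicates) and Padi6 het (3) carry a disrupted Padi6 on both or on 1 copy and are on the FVB/N background. Tle6 KO (4) and Tle6 het (2) carry a disrupted Tle6 on both or on 1 copy and are on C57BL/6J. No group had 2 intact copies of the gene its line targets, so the hets are not wild type, although bracketed names in their titles say WT. The sources used here do not say which part of either gene was removed, how old the females were or whether replicates came from separate animals. The p-values therefore measure only the spread between these samples.

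The subcortical maternal complex is a protein assembly beneath the oocyte cortex that is excluded from regions of contact between blastomeres of the early embryo. It is made from maternal transcripts during oocyte growth and is known to be needed for the first cleavages. NLRP5 (also called MATER) and OOEP (FLOPED) form its core with TLE6, a co-repressor relative, and KHDC3 (FILIA) and the zinc finger protein ZBED3 associate with it. PADI6, a peptidylarginine deiminase, is tied to the complex and to the cytoplasmic lattices, fibrous arrays that fill the oocyte cytoplasm. The comparisons ask whether transcripts of the complex differ when Padi6 or Tle6 is disrupted.

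The 12 biological replicates gave 15 libraries with 30100177 to 74947533 gene counts each. Tle6 het 1, Tle6 het 2 and Tle6 KO 4 each had technical libraries A and B, which were added together. A and B of Tle6 het 2 stood apart from each other. Calls that rest on this replicate are given again without either library for the core genes and for some of the other genes named. All 11 oocyte markers were above 1 CPM (counts-per-million of gene counts) in every group, with summed levels of 18479 to 20804 CPM in Padi6 KO, 18563 to 19846 in Padi6 het, 14655 to 17735 in Tle6 KO and 11739 to 20785 in Tle6 het. The 13 granulosa and cumulus markers summed to 85.6 to 133 CPM over all libraries. Most of this came from Nr5a2 (group means of 39.9 to 68.7 CPM) and Cyp19a1 (27.1 to 46.7 CPM). Amh, Foxl2 and Ptx3 were under 1 CPM in every group. Among the 13 markers Has2 rose in Padi6 KO, to a mean of 11.5 CPM against 2.58 CPM in Padi6 het (log2 difference 2.19, edgeR adjusted p = 0.0109). Of all genes 1.69% were higher there. Of the 10 markers tested in Padi6 KO, 2 were positive and 8 negative. The lowest were Amhr2, Inha, Fshr and Cyp11a1, with log2 differences of −2.77, −2.75, −2.13 and −1.81, none past the threshold. Their group means were at most 1.51 CPM except for Cyp11a1 (3.42 CPM in Padi6 KO and 12.1 CPM in Padi6 het). In Tle6 KO no granulosa or cumulus marker passed, where 1.62% of all genes did, with 8 of 11 tested positive (Amhr2 and Inha at 2.98 and 1.92) and 3 negative. In the difference between the lines Inha was higher (4.625, edgeR adjusted p = 0.0274) and Has2 lower (−2.855, edgeR adjusted p = 0.0159). Of all genes 1.31% were higher and 3.01% lower there. Between the hets Cyp19a1 was higher in Tle6 het (1.04, edgeR adjusted p = 0.00352) and Inha lower (−2.75, edgeR adjusted p = 0.0221). Of all genes 15.9% were higher and 12.7% lower. These marker calls were not read again in other settings or without Tle6 het 2. The part of granulosa and cumulus cells in the results that follow was not tested. The 6 theca and stroma markers summed to at most 4.99 CPM, and the 6 blood and immune markers to at most 2.33 CPM. In such bulk samples, fewer cells of a type and less RNA per cell cannot be told apart.

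The 5 genes lie on 4 chromosomes. Ooep (ENSMUSG00000032346.8) and Khdc3 (ENSMUSG00000092622.9), which both encode KH domain proteins, are on chromosome 9. Nlrp5 (ENSMUSG00000015721.19) is on chromosome 7, Tle6 (ENSMUSG00000034758.13) on chromosome 10 beside its relative Tle2, and Zbed3 (ENSMUSG00000041995.9) on chromosome 13. Khdc3 shares 790 exon bases with the annotated gene Gm20509, which was listed at 0 in all 15 libraries. Reads in such shared stretches may have been set apart as ambiguous, so the level of Khdc3 may be understated in every group alike.

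All 5 genes matched RefSeq's promoter table (GRCm38.p6), with 9 start windows among them, and Ooep and Khdc3 were the 2 with a single annotated start. Their windows of 250 bases before the start are shown because these 2 related genes stood far apart in level, as described further on. The Ooep window is chr9:78378589-78378838 on the minus strand, and the Khdc3 window is chr9:73102148-73102397 on the plus strand. Capitals mark matches, on either strand, to the E-box CANNTG, the motif class of the oocyte factor FIGLA, and to TAATTG, an element bound by the oocyte homeobox factor NOBOX.
Ooep: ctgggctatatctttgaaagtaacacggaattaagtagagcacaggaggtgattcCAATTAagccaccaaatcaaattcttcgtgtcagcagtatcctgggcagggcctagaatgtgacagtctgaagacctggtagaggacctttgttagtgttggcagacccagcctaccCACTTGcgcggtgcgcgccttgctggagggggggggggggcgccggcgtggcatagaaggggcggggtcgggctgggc
Khdc3: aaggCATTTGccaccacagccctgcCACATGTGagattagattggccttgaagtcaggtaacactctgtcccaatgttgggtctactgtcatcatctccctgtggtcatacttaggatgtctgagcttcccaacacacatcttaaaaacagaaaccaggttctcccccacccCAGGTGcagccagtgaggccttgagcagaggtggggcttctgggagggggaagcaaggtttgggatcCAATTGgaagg
The Ooep window held 1 E-box, 78 bases before the start, and 1 NOBOX element. The Khdc3 window held 5 E-boxes, of which 1 pair overlaps, and no NOBOX element. Among 32851 RefSeq windows of the same length, 66.2% held at least 1 E-box (mean 1.16 matches) and 7.17% held the NOBOX element, so an E-box is common in any promoter. TATAAA was in neither of the 2 windows, against 12.4% of all windows.

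Read per transcript length, the complex was made from very unequal amounts of RNA. Ooep averaged 15159 TPM (transcripts-per-million, from merged exon length) in Padi6 KO, 13179 in Padi6 het, 9842 in Tle6 KO and 9800 in Tle6 het. Zbed3 averaged 9353, 8396, 7977 and 11046 TPM in Padi6 KO, Padi6 het, Tle6 KO and Tle6 het. Both were among the most abundant transcripts of these oocytes, with ranks of 1 to 5 for Ooep and 2 to 10 for Zbed3 among 21929 protein-coding genes in the replicates. Tle6 averaged 1272 TPM in Padi6 KO and 1419 TPM in Padi6 het, where it ranked 71 to 95. Nlrp5 ranged between group means of 477 and 670 TPM and Khdc3 between 272 and 541 TPM. In each library Ooep exceeded Khdc3 by a factor of 16.5 to 80.1 (median 28.9) on the TPM scale. Counted together, the 5 genes took 1.71 to 1.97% of all gene counts in Padi6 KO, 1.58 to 1.86% in Padi6 het, 1.2 to 1.37% in Tle6 KO and 1.27 to 1.6% in Tle6 het.

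**Figure D1:**
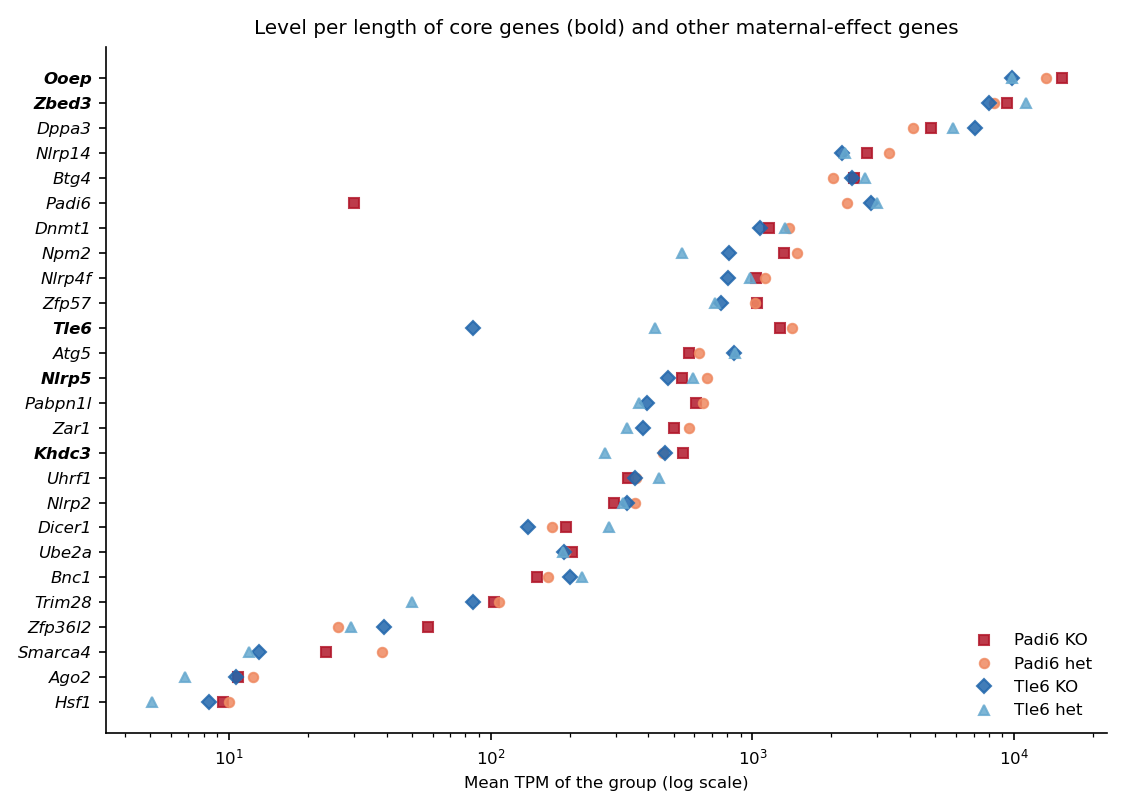
Group mean level per length (TPM, log axis) of the 5 genes (bold names), of Padi6 and 3 NLRP genes, and of 17 other maternal effect genes, with 1 symbol for each group. Ooep and Zbed3 lie above all other genes shown, and the Tle6 KO mean of Tle6 (85.6 TPM) lies far left of its other group means.

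Outside the Tle6 line's own target the order of the genes was largely the same, except that Ooep and Zbed3, and Nlrp5 and Khdc3, changed places in some libraries. The ratio of Ooep to Zbed3 ran from 0.694 to 1.66 (median 1.3). Ooep was above Zbed3 in 12 of the 15 libraries and below it in Tle6 het 1B, 2A and 2B, so the exceptions were all Tle6 het. That order depended on the length used, and with the longest coding transcript Zbed3 was above Ooep in 6 libraries. The ratio of Nlrp5 to Khdc3 ran from 0.735 to 5.9 (median 1.36). Khdc3 was the higher of the pair in Padi6 KO 2, Padi6 KO 3, Tle6 KO 2 and Tle6 KO 3, and in no het library.

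Tle6, the member that the second line targets, was the member that differed most between groups. It had 85.9, 79.1, 61.5 and 94.8 CPM in the Tle6 KO replicates, against 401 and 363 CPM in the Tle6 het replicates. The groups did not overlap, and Tle6 KO kept 21% of the mean level of Tle6 het in CPM. The log2 difference was −2.40 ± 0.208 (SE; 95% interval −2.87 to −1.93, edgeR adjusted p = 0.00167), so Tle6 fell in its own knockout. The transcript was thus still counted in the knockout, and whether these reads fall outside the disrupted part cannot be read from gene counts.

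In the Padi6 line Tle6 had 1417, 1162 and 1067 CPM in Padi6 KO, against 1401, 1285 and 1328 CPM in Padi6 het. These groups overlapped, and the log2 difference was −0.12 ± 0.108 (95% interval −0.36 to 0.12, edgeR adjusted p = 0.601). The effect of the knockout on Tle6 differed between the lines, which the design sets, since only the Tle6 line disrupts this gene. The difference (Tle6 line minus Padi6 line) was −2.33 ± 0.241 on the log2 scale (edgeR adjusted p = 0.00018). It was −2.56 without library B of Tle6 het 2, −2.14 without library A and −2.37 without that replicate.

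Tle6 also separated the hets of the 2 lines. Tle6 het averaged 382 ± 27.2 CPM (SD, n = 2) and Padi6 het 1338 ± 58.9 CPM (n = 3), so that Tle6 het held 28.6% of the level of Padi6 het in CPM. The log2 differences use TMM scaling, described with Ooep below, under which the gap was smaller (means of 441 and 1268). Tle6 was lower in Tle6 het by a log2 difference of −1.50 ± 0.196 (95% interval −1.92 to −1.08, edgeR adjusted p = 0.000123). It was −1.26 without library B of Tle6 het 2, −1.69 without library A and −1.46 without that replicate, all past the threshold. One disrupted copy of Tle6, the strain and the line cannot be told apart here. For Padi6, the mirror case, Padi6 het averaged 1782 ± 61.8 CPM (n = 3) and Padi6 KO 23.5 ± 3.8 CPM (n = 3), while Tle6 het averaged 2201 ± 528 CPM (n = 2). In CPM the hets overlapped (1828 to 2574 in Tle6 het, 1737 to 1852 in Padi6 het). After TMM scaling the means were 2536 in Tle6 het and 1688 in Padi6 het, with a log2 difference of 0.61 ± 0.185 (edgeR adjusted p = 0.0255). Without library A of Tle6 het 2 the log2 difference was 0.55 and short of the threshold (edgeR adjusted p = 0.0567). Padi6 was not read with total count scaling.

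**Figure D2:**
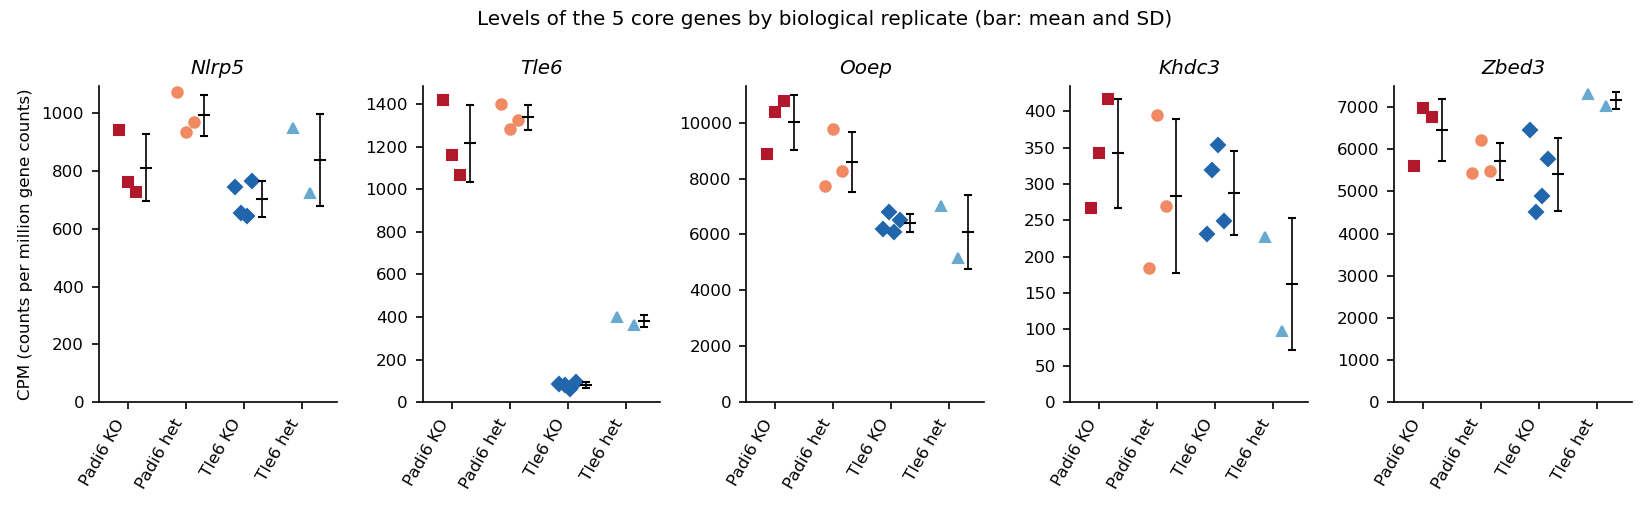
Level (CPM) of each of the 5 genes in every biological replicate of Padi6 KO, Padi6 het, Tle6 KO and Tle6 het, with bars for the group mean and SD. Tle6 falls into 3 separate ranges (Padi6 line, Tle6 KO, Tle6 het). For Nlrp5 and Khdc3 the ranges of groups next to each other in the order of their means overlap. Groups further apart in that order need not overlap, such as Padi6 het and Tle6 KO for Nlrp5, and Tle6 KO and Tle6 het for Khdc3.

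Nlrp5 encodes the NACHT and leucine-rich repeat protein that scaffolds the complex. It had 942, 763 and 726 CPM in Padi6 KO, against 1072, 935 and 969 CPM in Padi6 het. Only the highest Padi6 KO replicate reached the range of Padi6 het. The log2 difference was −0.27 ± 0.11 (95% interval −0.52 to −0.03, unadjusted p = 0.031, edgeR adjusted p = 0.216) and did not pass the test over all genes. In the Tle6 line Nlrp5 had 744, 654, 643 and 766 CPM in Tle6 KO, against 950 and 725 CPM in Tle6 het. The lower Tle6 het replicate lay inside the range of Tle6 KO, and the log2 difference was −0.40 ± 0.191 (95% interval −0.84 to 0.03, edgeR adjusted p = 0.293). The hets of the 2 lines differed by 0.06 ± 0.168 (edgeR adjusted p = 0.823). Neighbouring groups overlapped throughout the order of the means, which ran Padi6 het, Tle6 het, Padi6 KO, Tle6 KO in CPM, and Tle6 het came before Padi6 het after TMM scaling.

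Ooep encodes the KH domain protein that binds NLRP5 and TLE6 directly. It had 8893, 10385 and 10758 CPM in Padi6 KO, against 7716, 9790 and 8275 CPM in Padi6 het. The groups overlapped, with a log2 difference of 0.24 ± 0.126 (95% interval −0.04 to 0.52, edgeR adjusted p = 0.335). Ooep had 6196, 6791, 6083 and 6509 CPM in Tle6 KO, against 7032 and 5151 CPM in Tle6 het. The Tle6 KO replicates all lay between the 2 Tle6 het replicates, and the log2 difference was −0.08 ± 0.181 (95% interval −0.49 to 0.33, edgeR adjusted p = 0.842). Its direction turned to 0.07 with total count scaling. Every replicate of the Tle6 line was below every replicate of the Padi6 line in CPM, the highest and lowest being 7032 and 7716. After TMM scaling, which corrects for a few genes taking a large share of the counts, Tle6 het and Padi6 het overlapped, at means of 7021 and 8129 scaled CPM, and the log2 difference of −0.19 ± 0.159 did not pass the test (edgeR adjusted p = 0.406). With total count scaling it was −0.50 (edgeR adjusted p = 0.0325), a scaling under which the median of all genes moved to −0.339 in this comparison.

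Khdc3 encodes the KH domain protein known for its role in euploidy and genome stability of early mouse embryos. It had 267, 342 and 417 CPM in Padi6 KO, against 185, 395 and 270 CPM in Padi6 het. It had 231, 319, 353 and 249 CPM in Tle6 KO, against 227 and 98.4 CPM in Tle6 het. The Padi6 groups overlapped. In CPM every Tle6 KO replicate lay above both Tle6 het replicates, by a narrow margin over the higher of them, but after TMM scaling the groups overlapped (lowest Tle6 KO 238, highest Tle6 het 258 scaled CPM). The log2 difference was 0.30 ± 0.251 (95% interval −0.26 to 0.86, edgeR adjusted p = 0.576) in the Padi6 line and 0.68 ± 0.314 (−0.04 to 1.39, adjusted p = 0.283) in the Tle6 line. One replicate decided the size of each. Without Tle6 het 2 the value in the Tle6 line was 0.17 and without Tle6 het 1 it was 1.34 (edgeR adjusted p = 0.0918), and in the Padi6 line it was 0.07 without Padi6 het 1 and 0.61 without Padi6 het 2. Tle6 het and Padi6 het differed by −0.50 ± 0.338 (edgeR adjusted p = 0.297), or −1.17 (edgeR adjusted p = 0.0394) without Tle6 het 1.

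Zbed3 encodes the zinc finger protein known to bind axin and to associate with the complex. It had 5605, 6974 and 6763 CPM in Padi6 KO, against 5447, 6221 and 5476 CPM in Padi6 het. It had 6454, 4511, 4882 and 5756 CPM in Tle6 KO, against 7298 and 7016 CPM in Tle6 het. The Padi6 groups overlapped, whereas all 4 Tle6 KO replicates lay below both Tle6 het replicates. This held only with technical libraries added together, since library A of Tle6 het 2 had 5869 CPM, inside the range of Tle6 KO. The share of all genes that separate in this way was not counted. The log2 difference was 0.20 ± 0.118 (95% interval −0.07 to 0.46, edgeR adjusted p = 0.415) in the Padi6 line. In the Tle6 line it was −0.55 ± 0.213 (95% interval −1.04 to −0.07, unadjusted p = 0.0288, edgeR adjusted p = 0.209). With the spread estimated over all 4 groups the Tle6 line value was −0.60 and passed the threshold (edgeR adjusted p = 0.0436), while without library B of Tle6 het 2 it was −0.35 (edgeR adjusted p = 0.609). The difference between the 2 lines' effects on Zbed3 was −0.80 ± 0.239 (95% interval −1.31 to −0.28, edgeR adjusted p = 0.0783), short of the threshold. It passed without Tle6 KO 1 (−0.92, edgeR adjusted p = 0.0242) and without library A of Tle6 het 2 (−0.98, edgeR adjusted p = 0.0451). Without library B of Tle6 het 2 it was −0.56 (edgeR adjusted p = 0.387), so its size depended on which library stood for that replicate.

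Zbed3 was higher in Tle6 het than in Padi6 het, at means of 7157 ± 199 CPM (SD, n = 2) and 5715 ± 439 CPM (n = 3). The log2 difference was 0.64 ± 0.183 (95% interval 0.24 to 1.03, edgeR adjusted p = 0.0193). The call was lost with total count scaling (0.32, edgeR adjusted p = 0.147) and without library B of Tle6 het 2 (0.39, edgeR adjusted p = 0.226). It was also lost on leaving out Padi6 het 1, Padi6 het 3, Tle6 het 1 or Tle6 het 2, with log2 differences of 0.61 to 0.64 and edgeR adjusted p of 0.0578 to 0.0738.

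The members called are given beside the share of all genes called, and 5 genes are too few to set apart from that share. In Padi6 KO against Padi6 het 0 of the 5 passed the test, where 2.41% of 18228 genes tested did (440 genes, 1.69% higher and 0.724% lower). The count at an unadjusted p under 0.05 was 1 member, Nlrp5, and 3399 of all genes, and DESeq2 also called 0 members. In Tle6 KO against Tle6 het 1 of 5, Tle6 itself, passed, where 1.62% of 20276 genes did (0.587% higher and 1.04% lower). In the test of the difference between the lines 1 of 5, again Tle6, passed, where 4.32% of 21392 genes did (1.31% higher and 3.01% lower). Between Tle6 het and Padi6 het 2 of 5 passed, Zbed3 higher and Tle6 lower, where 28.5% of 21392 genes did (15.9% higher and 12.7% lower). The median log2 difference of the 5 genes was 0.20, −0.40, −0.37 and −0.19 in these comparisons in turn, against −0.006, 0.062, 0.021 and −0.03 over all genes tested. These medians include Tle6, the disrupted gene of the Tle6 line, which pulls the values that involve that line down. In Tle6 KO the untargeted members were at −0.40 (Nlrp5), −0.08 (Ooep), 0.68 (Khdc3) and −0.55 (Zbed3). No shift of the complex as a whole is read from the medians.

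**Figure D3:**
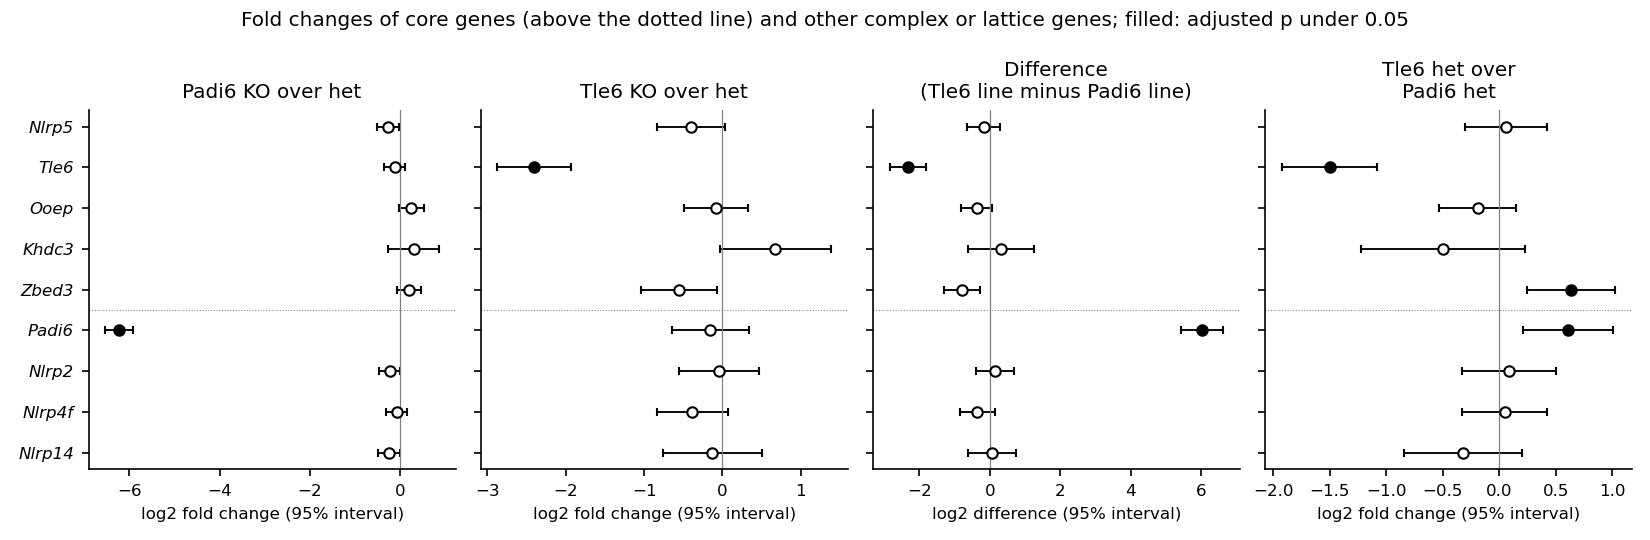
Log2 difference with its 95% interval for the 5 genes (above the dotted line), Padi6 and 3 NLRP genes, in Padi6 KO against Padi6 het, Tle6 KO against Tle6 het, the difference between the lines' effects, and Tle6 het against Padi6 het, with filled points for an adjusted p under 0.05. The intervals of Ooep and Khdc3 cross 0 in every panel, and the interval of Tle6 lies far from 0 in all panels but the first.

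Genes tied to the complex but outside its core were read in the same fits, from lists chosen with earlier results of these data known. Nlrp2, Nlrp4f and Nlrp14, NLRP family relatives of Nlrp5 expressed in oocytes, did not pass the test in either knockout, with log2 differences of −0.23, −0.07 and −0.24 in Padi6 KO and −0.05, −0.38 and −0.13 in Tle6 KO. Padi6 itself was at 2185 ± 290 CPM (n = 4) in Tle6 KO and 2201 ± 528 CPM (n = 2) in Tle6 het, a log2 difference of −0.16 ± 0.217 (edgeR adjusted p = 0.737). Of 4 further KH domain genes related to Ooep (Dppa5a, Khdc1a, Khdc1b and Khdc1c), none passed the test in either knockout. For Khdc1c the effects differed between the lines (−1.03 on the log2 scale, edgeR adjusted p = 0.043), a call lost without library B of Tle6 het 2 (−0.54, edgeR adjusted p = 0.567) and without that replicate (−1.0, edgeR adjusted p = 0.11). Khdc1a, Khdc1b and Khdc1c were all higher in Tle6 het than in Padi6 het, by 1.34, 0.52 and 1.18 on the log2 scale, so 3 of 4 were higher in the comparison in which 15.9% of all genes were. Without library B of Tle6 het 2 none of the 3 passed (0.67, 0.15 and 0.69, edgeR adjusted p of 0.22, 0.702 and 0.115), and without that replicate Khdc1b did not (0.53, edgeR adjusted p = 0.075). Relatives of Tle6 were scarce, and the highest group mean among Tle1, Tle2, Tle3, Tle4 and Aes was 37 CPM, for Tle4 in Padi6 KO.

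Transcription factors of the oocyte program were followed as well. Of 8 listed, none passed the test in Padi6 KO against Padi6 het. In Tle6 KO against Tle6 het 1 of 8 passed, the germ cell basal factor Gtf2a1l, which was higher by 1.01 ± 0.198 (edgeR adjusted p = 0.0438), where 0.587% of all genes were higher. The call was lost without library B of Tle6 het 2 (0.98, edgeR adjusted p = 0.0957), without library A (0.98, edgeR adjusted p = 0.0598) and without that replicate (1.05, edgeR adjusted p = 0.158). Between Tle6 het and Padi6 het 2 were higher and 4 lower of 8, where 15.9% of all genes were higher and 12.7% lower. Nobox was among the lower ones, at −1.02, and at −0.79, −1.19 and −1.03 without library B of Tle6 het 2, without library A and without that replicate. Of 17 other maternal effect genes, Zfp36l2, an mRNA decay factor, rose in Padi6 KO (1.19, edgeR adjusted p = 0.00855), where 1.69% of all genes rose. Smarca4, a chromatin remodelling ATPase, was lower in Padi6 KO (−0.66, edgeR adjusted p = 0.048), where 0.724% fell. It was only just past the threshold, ranking 432 by p among 440 genes called. Neither gene was read in the alternative settings, in which 60 to 1625 genes were called. None of the 17 passed in Tle6 KO. In the difference between the lines Dicer1 passed (−1.39, edgeR adjusted p = 0.0211), where 3.01% of all genes were lower. Of the 8 transcription factors Sohlh1 passed there (5.31, edgeR adjusted p = 0.0381), where 1.31% were higher, at group means of at most 0.34 CPM. Between Tle6 het and Padi6 het 5 of the 17 were higher and 5 lower, against 15.9% and 12.7% of all genes. These calls were not read again without Tle6 het 2.

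The technical libraries of 1 replicate set a limit to what the Tle6 het group can show. In Tle6 het 2 libraries A and B, Tle6 was at 600 and 234 CPM and Khdc3 at 63.1 and 118 CPM. In the same libraries Zbed3 was at 5869 and 7640 CPM, Nlrp5 at 881 and 640 CPM and Ooep at 5274 and 5084 CPM. Tle6 and Nlrp5 were thus higher in library A, Khdc3 and Zbed3 in library B, and Ooep was close in both. The log2 ratio of B over A was −1.36 for Tle6, and 14.7% of the 7441 genes at 10 CPM or more were at least as far apart. In Tle6 KO 4 the same ratios of the 5 genes lay between −0.14 and 0.09, and in Tle6 het 1 between −0.15 and 0.04. Tle6 was nonetheless above every Tle6 KO library in each of the 4 Tle6 het libraries, whose lowest value was 234 CPM against a highest of 98.2 CPM in Tle6 KO. Its log2 difference in Tle6 KO was −2.68 without library B of Tle6 het 2, −2.21 without library A and −2.48 without that replicate (edgeR adjusted p of 0.00267, 0.00576 and 0.0109). Without Tle6 het 2 the log2 difference in Tle6 KO was −0.60 for Nlrp5, −0.30 for Ooep and −0.59 for Zbed3, none past the threshold (edgeR adjusted p of 0.319, 0.544 and 0.405).

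**Figure D4:**
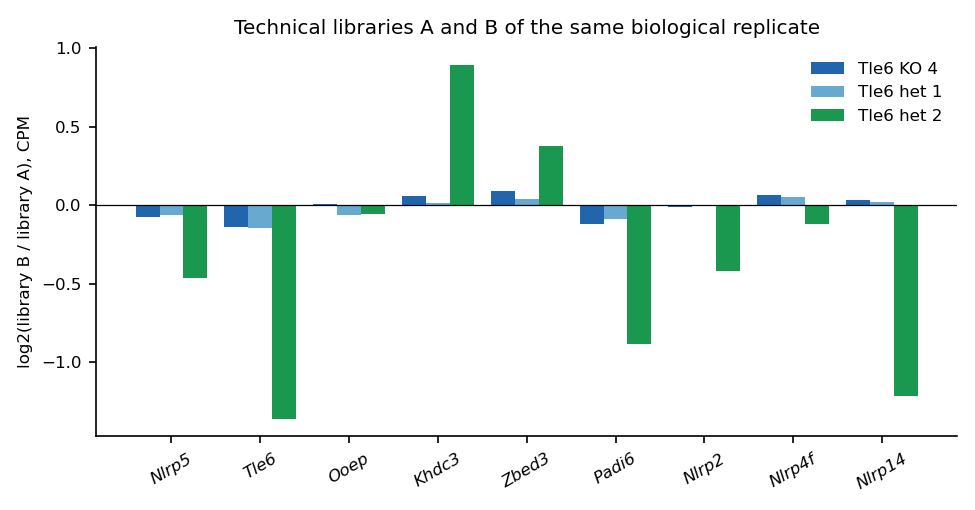
Log2 ratio of technical library B over A for the 5 genes, Padi6 and 3 NLRP genes in Tle6 KO 4, Tle6 het 1 and Tle6 het 2 (1 bar each). The ratios of the 5 genes in Tle6 het 2 spread from −1.36 (Tle6) to 0.90 (Khdc3), while those of the other pairs stay near 0.

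Among replicates of the same group, the 5 genes did not vary alike. The pooled SD of log2 CPM within groups was 0.155 for Ooep, 0.18 for Nlrp5, 0.196 for Zbed3, 0.217 for Tle6 and 0.454 for Khdc3, against a median of 0.232 over 7951 genes. Khdc3 was thus the noisiest member, with 93% of genes spreading less. Deviations from the group means over the 12 replicates moved together for Nlrp5 and Tle6 (Pearson r = 0.826, Spearman rho = 0.853) and for Ooep and Khdc3 (r = 0.827, rho = 0.825). Without the 2 replicates farthest from the median of the first gene of each pair these were r = 0.726 and r = 0.699. Over the 6 replicates of the Padi6 line r was 0.978 for Nlrp5 and Tle6 and 0.955 for Ooep and Khdc3. Every pair of the 5 genes was far from 0 in that line, in either direction. The closest to 0 was Khdc3 and Zbed3 (r = 0.732), so this was not particular to the 2 pairs. Over the 6 of the Tle6 line r was 0.764 for Nlrp5 and Tle6 and 0.709 for Ooep and Khdc3. Within the 4 Tle6 KO replicates Nlrp5 and Tle6 still deviated together (r = 0.879), but Ooep and Khdc3 deviated in opposite directions (r = −0.584). The positive Tle6 line value of Ooep and Khdc3 thus came from the 2 Tle6 het replicates, which lie at equal distance from their mean by construction and include Tle6 het 2. Over the 10 replicates outside Tle6 het r was 0.885 for Nlrp5 and Tle6. For Ooep and Khdc3 the 2 replicates left out above were those of Tle6 het, so r = 0.699 is the same value and no further check. The replicates share library depth and preparation between genes, so these values describe the samples.

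**Figure D5:**
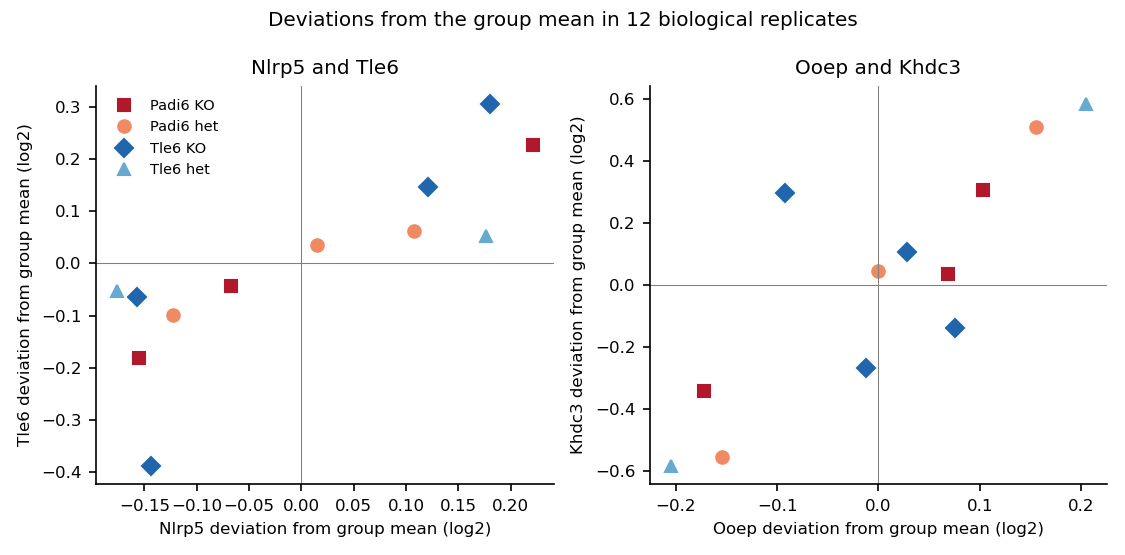
Deviation of each of the 12 replicates from its group mean (log2 CPM) for pairs of the 5 genes. Nlrp5 and Tle6 deviate together (r = 0.826), and Ooep and Khdc3 do so over all 12 replicates (r = 0.827) but not within the 4 Tle6 KO replicates (r = −0.584).

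By the same measure over 7563 protein-coding genes, the genes most like Nlrp5 were Nipsnap1 (r = 0.979), Vac14 (0.972) and Mgrn1 (0.968). Those most like Tle6 were Dynlt1a (0.981), Srm (0.978) and Prpf8 (0.972). For Ooep they were Cux1 (0.976), Pdx1 (0.937) and Adam17 (0.933), for Khdc3 Safb (0.972), Minpp1 (0.971) and Ctbp1 (0.955), and for Zbed3 Clcn3 (0.962), Ppp4r3a (0.957) and Sorbs2 (0.957). No member was among the 3 genes most like another.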

How the data were processed

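Each library held polyadenylated RNA of 15 GV oocytes, and the kit was QIAseq FX Single Cell RNA, per the labels' protocols. The authors deposited raw counts of reads per gene (53700 genes). The submitters' processing notes name bcl2fastq 2.20.0.422, cutadapt 2.8, STAR 2.7.8a, HTSeq 2.0.2 and mm39. Neither annotation release nor strand setting was given in the sources used here. Names, chromosomes and lengths came from GENCODE M21 (GRCm38), which matched 52147 identifiers.

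Technical libraries were summed. For KO against het each line had its own fit. The fits used edgeR 4.0.16 in R 4.3.3 (filterByExpr, TMM, robust glmQLFit, glmQLFTest). The tests were two-sided, and p-values were adjusted by Benjamini-Hochberg over every gene in the fit and called under 0.05. The difference between the lines' effects and Tle6 het against Padi6 het came from 1 fit over 12 replicates. CPM in the text use total gene counts, and fold changes use TMM. Alternatives were other scalings and filters, DESeq2 1.42.0, limma-voom (limma 3.58.1), a shared spread, a replicate block, other uses of technical libraries, and each replicate left out. The code was tested on simulated data. The members, the lists and the rule for named genes (the members, the listed genes, and the 3 genes most like each member) were chosen with earlier results of these data known. Depth left replicate spread, not counting, as the limit. Spike-in scaling was not used, since 5 of 15 libraries had at least 1000 spike-in counts (range 5 to 13772).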

Additional observations from a re-analysis of the deposited data

Results flagged for a closer look

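The effect of the knockout differed between the 2 lines for each line's own target. This was set by the design, since each of these genes is disrupted in 1 line only, and says nothing further about the complex. For Tle6 the effect in the Tle6 line minus that in the Padi6 line was −2.33 on the log2 scale (edgeR adjusted p = 0.00018), with Tle6 lower in 4 of 4 Tle6 KO replicates than in both Tle6 het replicates. For Padi6 the same difference was 6.02 (edgeR adjusted p = 7.18e-08), with Padi6 lower in 3 of 3 Padi6 KO replicates than in the Padi6 het replicates. Among the 5 genes in Tle6 KO, the 1 group with at least 4 replicates, no replicate was flagged as an outlier in CPM. The rule set the gap between an end replicate and its neighbour against the range. With 4 replicates only a very large gap is flagged, so the lack of a flag says little. The other groups, Tle6 het among them, were too small for the rule.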

How the results depend on the processing

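The call of Tle6 held in every setting run: −2.69 to −2.21 in Tle6 KO against Tle6 het, −2.57 to −2.11 in the difference between the lines and −1.81 to −1.24 in Tle6 het against Padi6 het (log2). No member was called in Padi6 KO against Padi6 het in any of 15 settings. For the genes called in that comparison (440), the counts were 1625 with no filter, 1336 with DESeq2, 859 with the replicate block, 60 with the spread of all 4 groups and 61 to 258 with each replicate left out. For Tle6 KO against Tle6 het (329) they were 1447 with no filter, 1732 with DESeq2, 57 with the replicate block, 2061 with the shared spread, 118 with A libraries only, 120 without library B of Tle6 het 2 and 119 to 292 with each replicate left out. For the difference between the lines (924) they were 2078 with no filter, 567 with a mean of at least 5 CPM, 1997 with DESeq2, 400 with the replicate block, 369 with A libraries only, 382 without library B and 406 to 1465 with each replicate left out. For the hets (6107) they were 4047 with a mean of at least 5 CPM, 3534 with A libraries only, 3724 without library B and 3953 to 6283 with each replicate left out. Members called became 2 in Tle6 KO with the shared spread. They became 2 in the difference between the lines with no filter, DESeq2 or library A of Tle6 het 2 left out, and 1 to 2 with each replicate left out. They became 1 between the hets with A libraries only or library B left out, and 1 to 2 with each replicate left out. The gene gained or lost was Zbed3, except that leaving out Tle6 het 1 between the hets lost Zbed3 and gained Khdc3, and total count scaling lost Zbed3 and gained Ooep there. The difference between the lines for Zbed3 was −0.77 with no filter, −0.79 with DESeq2 and −0.98 without library A of Tle6 het 2 (edgeR or DESeq2 adjusted p of 0.0267, 0.0454 and 0.0451), and −0.92 without Tle6 KO 1 (edgeR adjusted p = 0.0242). It was −0.56 without library B of Tle6 het 2, −0.55 with A libraries only and −0.58 with total count scaling (edgeR adjusted p of 0.387, 0.387 and 0.135).

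Among the members, directions turned for Ooep, Nlrp5 and Khdc3, none of them called. For Ooep in Tle6 KO the value was 0.07 with total count scaling and −0.30 to 0.11 with each replicate left out. For Nlrp5 it was 0.04 in the difference between the lines with total count scaling, and between the hets −0.24 with total count scaling, −0.02 with a mean of at least 5 CPM and −0.11 to 0.22 with each replicate left out. For Khdc3 in the difference it was −0.14 to 1.00 with each replicate left out. For 9 named genes outside the core, the settings that leave out Tle6 het 2 or either library were chosen after seeing the data. Without library B, uncalled values turned for Khdc1a in Tle6 KO (0.39), for Khdc1a, Nlrp14 and Nobox in the difference between the lines (0.55, −0.19 and −0.06) and for Nlrp4f between the hets (−0.06). Without library A, Nlrp14 turned in Tle6 KO (0.07). Without Tle6 het 2, Nlrp2 and Nlrp14 turned in Tle6 KO (0.20 and 0.21) and Nlrp2 and Nlrp4f between the hets (−0.20 and −0.13). The cause was not tested. Total count scaling moved the median of all genes to 0.219 in Tle6 KO, 0.245 in the difference and −0.339 between the hets. Same-numbered replicates deviated together only weakly (r of 0.108, 0.052 and 0.066 for Padi6 numbers 1 to 3, 0.053 and 0.103 for Tle6 numbers 1 and 2), so the numbers were not taken as pairs, although each Padi6 line replicate correlated best with its own number. The block changed no call of a member. It was not run between the hets, whose numbers are nested in lines.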

Other observations

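Across pairs of the 5 genes, the 2 lines differed in how replicates deviated from their group means. Nlrp5 and Ooep deviated in opposite directions in the Padi6 line (r = −0.959 over 6 replicates) and in the same direction in the Tle6 line (r = 0.753 over 6), so that the value over all 12 replicates was −0.006. For Nlrp5 and Zbed3 r was −0.932 over the Padi6 line and 0.726 over the Tle6 line. These values are descriptions with no test. The Tle6 line values include Tle6 het 2, and within the 4 Tle6 KO replicates r was 0.561 for Nlrp5 and Ooep and 0.917 for Nlrp5 and Zbed3.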
